A study of Mus musculus with 8 samples.

Results

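Genes that make cholesterol and fatty acids were followed through 8 RNA-sequencing libraries of the mouse arcuate nucleus, a hypothalamic region that holds the POMC and AgRP neurons of appetite control. The set was a list of 33 gene symbols, and all 33 were found among the 13130 genes listed in both the knockout and the sponge tables. It held 18 enzymes of cholesterol synthesis, 5 regulators, 3 enzymes of fatty acid synthesis and 7 desaturases and elongases. Every library was a pool of 2 mice aged 4 months on a C57BL/6 background, and each of the 4 groups had 2 libraries. The knockout group was male and carried Pomc-Cre with floxed alleles of the miR-17-92 cluster (Pomc-Cre;miR-17-92flox/flox), with wild type male littermates as controls. The sponge group was female and carried Pomc-Cre with a miR-7 sponge (Pomc-Cre;miR-7-sponge), an RNA designed to sequester that microRNA, with wild type female littermates as controls. The wild type females were also set against the wild type males, and that comparison therefore shares its libraries with the other 2. These females and males are littermates of different lines, so sex cannot be told apart from line or litter in it. The controls are labelled wild type and carry no Cre, so Cre and the manipulation cannot be told apart, and neither can sex and the kind of manipulation when the knockout is set beside the sponge. Pomc-Cre acts in cells that have used the Pomc promoter, whereas the RNA came from all cells of the dissected tissue. The deleted cluster and the sponge transcript themselves were not analysed here.

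Cholesterol is built from acetyl-CoA through mevalonate, squalene and lanosterol, and the brain makes its own because lipoprotein cholesterol does not cross the blood-brain barrier. The pathway is governed by SREBP proteins, which SCAP escorts from the endoplasmic reticulum to the Golgi when sterols are low and which INSIG proteins hold back when sterols are plentiful. SREBP-2 acts mainly on cholesterol genes and SREBP-1c on fatty acid genes, and Insig1 is itself an SREBP target. Fatty acids are made by ACLY, ACACA and FASN and are then desaturated and lengthened for membranes and myelin. In bulk tissue, fewer cells of a type and less RNA per cell cannot be told apart.

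The mature microRNAs that the manipulations address are shown because their seeds define which transcripts could pair with them. Sequences are from RefSeq on GRCm38.p6, read 5′ to 3′, with the seed (bases 2 to 8) in capitals. miR-17 and miR-20a share a seed, as do both miR-19 members of the cluster and both forms of miR-7. Mature miR-19b and miR-92a are also listed, with the same sequence, from chromosome X, outside the cluster on chromosome 14. Likewise, miR-7a is also listed from chromosome 7. Those further loci are not printed.
mmu-miR-17-5p (chr14:115043684-115043706, plus strand): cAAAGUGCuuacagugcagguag
mmu-miR-20a-5p (chr14:115044183-115044205, plus strand): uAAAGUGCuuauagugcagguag
mmu-miR-18a-5p (chr14:115043867-115043889, plus strand): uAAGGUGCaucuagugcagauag
mmu-miR-19a-3p (chr14:115044048-115044070, plus strand): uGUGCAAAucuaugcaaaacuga
mmu-miR-19b-3p (chr14:115044358-115044380, plus strand): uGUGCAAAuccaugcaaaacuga
mmu-miR-92a-3p (chr14:115044476-115044496, plus strand): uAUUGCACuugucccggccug
mmu-miR-7a-5p (chr13:58392841-58392863, minus strand): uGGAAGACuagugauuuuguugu
mmu-miR-7b-5p (chr17:56243017-56243040, plus strand): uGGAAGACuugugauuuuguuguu

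Matches to these seeds were searched in each gene's 3' UTR, the longest one annotated. A match to miR-7 (GTCTTCC) lay in 5 of the 33 genes, namely Lss, Hsd17b7, Srebf1, Scd2 and Fads1, which is 15.2% against 15.3% of 12904 genes. A match to miR-17 and miR-20a (GCACTTT) lay in Lss and Elovl6, which is 6.06% against 15.5%. The miR-18a match (GCACCTT) lay in Mvk, Sc5d, Srebf1, Scd2 and Elovl1 (15.2% against 10.4%). The miR-19 match (TTTGCAC) lay in Sc5d, Srebf2, Scd1 and Elovl5 (12.1% against 14.7%), and the miR-92a match (GTGCAAT) in Nsdhl, Sc5d and Insig1 (9.09% against 8.35%). The median 3' UTR was 1553 bases long for the synthesis genes and 1413.5 for all genes. Of these, 6 matches are shown, chosen among regulators and enzymes of small p. The miR-18a match of Srebf1 and the matches of Sc5d are not shown. Each is given with the bases before it, with the match in capitals, in GRCm38 coordinates and on the gene's strand.
Insig1, miR-92a (chr5:28077750-28077771, plus strand): gtcttcaacttcaaGTGCAATg
Srebf2, miR-19 (chr15:82204330-82204351, plus strand): ctgggaactaggtcTTTGCACc
Srebf1, miR-7 (chr11:60199873-60199894, minus strand): tgtcattggctgtgGTCTTCCa
Lss, miR-17 and miR-20a (chr10:76554605-76554626, plus strand): cctttggccatggtGCACTTTg
Lss, miR-7 (chr10:76554523-76554544, plus strand): ctccctgacccataGTCTTCCc
Elovl6, miR-17 and miR-20a (chr3:129635987-129636008, plus strand): gctatgcttccaaaGCACTTTa
A match is a description of letters and does not show that the microRNA binds there.

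Promoters of Hmgcs1, Insig1 and Srebf2 are shown because these genes stand at the pathway's entry and its feedback, and their levels are described together. Each is read 5′ to 3′ and comes from RefSeq on GRCm38.p6. Those of Insig1 and Srebf2 end at the base before the start of the deposited gene, and that of Hmgcs1 ends at the base before the RefSeq start, upstream of the deposited one. Capitals mark the sterol response element core TCACNCCA, the E-box CACGTG, the CCAAT box CCAAT and the GC box GGGCGG, each searched on both strands.
Hmgcs1 (chr13:119690101-119690350, plus strand): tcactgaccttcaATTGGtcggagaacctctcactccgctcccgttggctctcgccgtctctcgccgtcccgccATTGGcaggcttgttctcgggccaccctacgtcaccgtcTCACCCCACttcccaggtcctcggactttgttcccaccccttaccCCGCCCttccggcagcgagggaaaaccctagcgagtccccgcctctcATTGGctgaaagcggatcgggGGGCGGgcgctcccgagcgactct
Insig1 (chr5:28071162-28071362, plus strand): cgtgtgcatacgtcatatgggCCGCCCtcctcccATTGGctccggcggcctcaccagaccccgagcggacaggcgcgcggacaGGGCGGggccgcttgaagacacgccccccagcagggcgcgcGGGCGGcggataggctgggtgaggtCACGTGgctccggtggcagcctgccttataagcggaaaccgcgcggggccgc
Srebf2 (chr15:82147019-82147265, plus strand): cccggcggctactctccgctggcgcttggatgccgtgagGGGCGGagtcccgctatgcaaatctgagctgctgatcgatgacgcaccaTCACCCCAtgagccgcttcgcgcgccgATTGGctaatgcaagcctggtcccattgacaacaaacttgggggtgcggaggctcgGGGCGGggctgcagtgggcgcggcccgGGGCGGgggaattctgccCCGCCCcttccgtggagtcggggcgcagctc
The counts took the 250 bases before every RefSeq start of a gene, some of which lie within the deposited gene, so a gene with several starts was searched in more sequence. Among the 27 synthesis genes with a RefSeq promoter, 21 held a CCAAT box before at least 1 start (77.8%, against 37.5% of all 27025 genes, expressed here or not) and 22 held a GC box (81.5% against 35.4%). The E-box lay in Hsd17b7, Sc5d, Dhcr7, Scap, Insig1 and Elovl5 (22.2% against 6.86%), and those of Dhcr7 and Scap were not in the stretch before the deposited gene's start. The longer sterol element TCACNCCAC, which contains the core, was in Hmgcs1 alone among these 27 (3.70% against 1.22%). The core TCACNCCA was in Hmgcs1, Msmo1 and Srebf2 (11.1% against 4.20%), and it was chosen after the Srebf2 promoter had been seen. These letters do not show that a factor is bound.

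Over all genes the 8 libraries had a median FPKM (the deposited unit, fragments per kilobase of transcript scaled to the mapped total) of 4.67 to 5.04, and 104 to 135 genes were listed at 0. Across genes, Pearson's r was 0.903 to 0.910 within groups and 0.887 to 0.915 between groups, so the values within groups lay inside the range between groups. Markers of other cell types differed between libraries. The summed FPKM of 8 meningeal and fibroblast markers was 357 and 242 in the knockout against 88.7 and 80.9 in wild type males, and 250.3 and 76.3 in the sponge against 73.8 and 98.9 in wild type females. Choroid plexus markers (4 of 6 in both tables) summed to 532 in wild type female replicate 2 and to at most 45.7 elsewhere, and 3 pituitary hormone genes to 336 in knockout replicate 1 and at most 69.4 elsewhere. The 8 arcuate neuron markers summed to 142 and 97.9 in the knockout, 198 and 159.9 in wild type males, 416 and 187 in the sponge and 185 and 206 in wild type females, with none at 0. None of the 4 adipocyte markers was in both tables.

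The synthesis genes had a median mean FPKM of 12.3 against 5.0 for all genes, and most were steady between replicates. The median standard deviation within a group, on the log2(FPKM + 1) scale, was 0.187 for them and 0.232 for all genes. Replicates differed by over 2-fold in 12 of 132 gene-by-group pairs (9.09%, against 12.5% over all genes), spread over 9 genes. Wild type females held 5 of these pairs: Mvd, Idi1, Insig1, Scd1 and Fads1. For Fdps, Sqle, Lss, Msmo1 and Scap the mean of the highest transcript was over 1.5 times the gene's own mean, so their place in the order of levels is uncertain.

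Among the 7 enzymes from acetyl-CoA to farnesyl pyrophosphate, Hmgcs1 (chromosome 13, 119690462 to 119708086), which makes HMG-CoA, was the highest with a mean FPKM of 61.7. Mvk, mevalonate kinase, was the lowest, between 4.87 and 6.78 in the 8 libraries. Acat2, an acetoacetyl-CoA thiolase, ranged from 13.6 to 19.96, and Pmvk, phosphomevalonate kinase, from 18.99 to 28.0. Fdps, which makes farnesyl pyrophosphate, stayed between 10.9 and 14.8. Mvd, mevalonate decarboxylase, and Idi1, which isomerises isopentenyl pyrophosphate, each had 1 low wild type female library: 3.69 for Mvd in replicate 4 and 3.35 for Idi1 in replicate 2, where the other values were 7.30 to 9.14 and 5.95 to 11.96.

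At the squalene steps, Fdft1, squalene synthase, ranged from 26.8 to 36.4 and Sqle, squalene epoxidase, from 5.76 to 14.4. Lss, lanosterol synthase, was near the bottom of the list at 1.54 to 3.03. Among the 8 enzymes after lanosterol, Cyp51 was the highest and narrow, at 10.5 to 15.4, and Tm7sf2, a sterol reductase, the lowest. Tm7sf2 was at 2.10 and 1.71 FPKM in the knockout, 1.95 and 2.52 in wild type males, 1.37 and 1.98 in the sponge and 1.94 and 2.25 in wild type females, with every pair of compared groups overlapping. Nsdhl, a sterol dehydrogenase, stayed at 5.36 to 8.26 and Sc5d, sterol C5-desaturase, at 5.87 to 11.96. Ebp, a sterol isomerase, ranged from 2.40 to 6.32, Hsd17b7, a 3-ketosteroid reductase, from 1.37 to 4.01, and Dhcr7, 7-dehydrocholesterol reductase, from 2.64 to 5.53.

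In fatty acid synthesis, Acaca, acetyl-CoA carboxylase, stayed between 11.5 and 13.0 and Acly, ATP citrate lyase, between 40.6 and 47.9, while Fasn ranged from 36.6 to 55.6. Scd2, the main stearoyl-CoA desaturase of brain, was the highest gene of the list, at 295 and 295 FPKM in the knockout, 339.8 and 337 in wild type males, 326 and 263 in the sponge and 276 and 349.95 in wild type females. Both knockout libraries lay below both wild type males, and the females overlapped. Scd1 was at 66.7 and 61.0 in the knockout, 61.1 and 66.9 in wild type males, 54.6 and 52.6 in the sponge, and 57.6 and 12.7 in wild type females. Its spread over 8 libraries came from the last of these.

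Fads2, the delta-6 desaturase, was at 61.6 and 50.8 FPKM in the knockout, 58.5 and 54.2 in wild type males, 47.2 and 45.5 in the sponge and 52.2 and 60.6 in wild type females, so that both sponge libraries lay below both of their controls. Its neighbour on chromosome 19, Fads1, the delta-5 desaturase, varied far more, from 19.4 to 62.9, with replicates over 2-fold apart in 3 of 4 groups. Elovl5, an elongase of polyunsaturated chains, was steady at 19.7 to 23.5. Elovl1, an elongase of saturated chains, was the lowest gene of the list, at 1.90 and 2.00 in the knockout, 1.62 and 1.56 in wild type males, 1.43 and 2.01 in the sponge and 1.36 and 2.06 in wild type females. Only the knockout libraries were clear of their controls for it. Elovl6, the elongase of palmitate, had the widest ratio of highest to lowest library, 7.38.

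**Figure D1:**
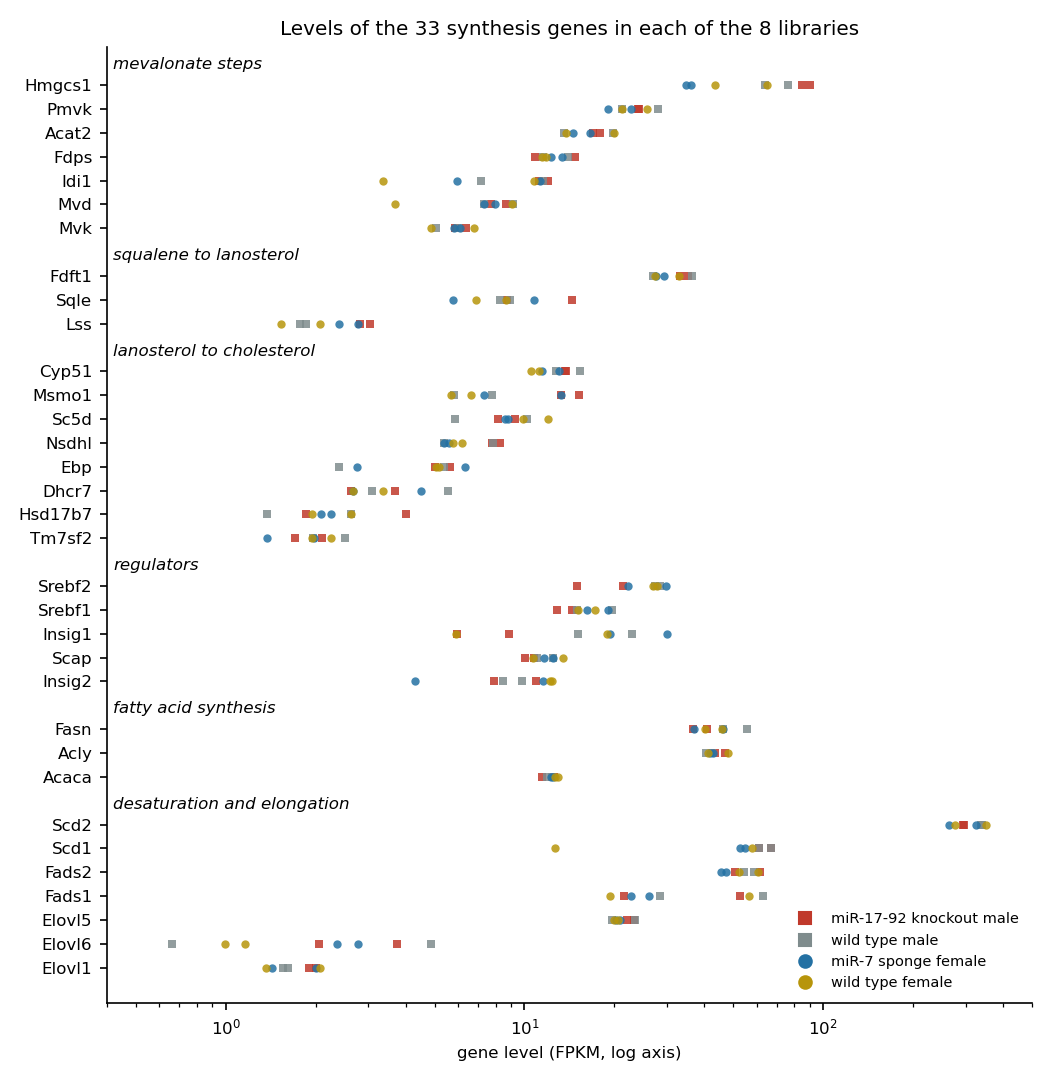
Level of each of the 33 genes in FPKM (log axis) in 8 libraries, grouped by role. Squares are males and circles females. Scd2 stands at 263 to 349.95 FPKM, and Elovl6, Fads1, Scd1 and Insig1 scatter widely within groups.

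**Figure D2:**
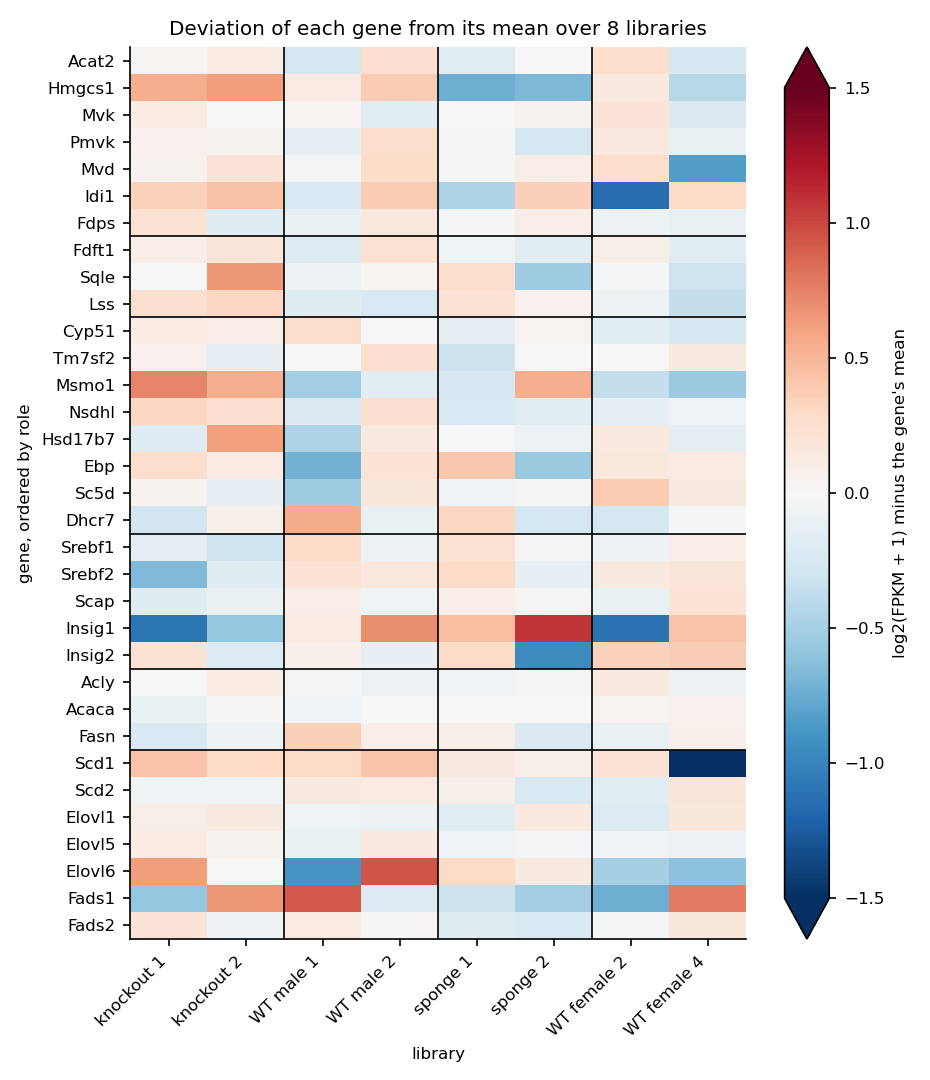
Deviation of every gene in every library from that gene's mean over the 8 libraries, on the log2(FPKM + 1) scale, with colour limits at 1.5. The Scd1 value of wild type female replicate 4 (12.7 FPKM) lies past the limit, and the Insig1 values of both knockout libraries and wild type female replicate 2 are low.

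With the miR-17-92 cluster floxed and Pomc-Cre present in males, no synthesis gene passed the test. With limma and Benjamini-Hochberg adjustment, 0 of the 33 were called, where 0.0608% of 13155 genes (8) were, and 2 had an unadjusted p under 0.05, against 5.33% of all genes. Positive log2 fold changes numbered 18 of 33, against 53.9% of all genes, and the median was 0.03 for both. In 5 genes (Hmgcs1, Lss, Msmo1, Acly and Elovl1) the knockout libraries were both higher than the 2 controls, as in 22.5% of all genes. In 6 (Srebf1, Srebf2, Scap, Insig1, Fasn and Scd2) they were both lower, as in 16.0% of all genes.

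Of the 5 regulators, 4 were below the controls in both knockout libraries, as were 16.0% of all genes, and none passed. Insig1 (chromosome 5, 28071363 to 28078662), whose protein retains SCAP, had 5.95 and 8.89 FPKM in the knockout and 15.2 and 22.9 in wild type males. The groups did not overlap, with a log2 fold change of -1.25 ± 0.31 (unadjusted p = 0.0115, adjusted p = 0.703, limma). In FPKM, the gap between the groups was smaller than the distance between the 2 wild type males. Srebf2 (chromosome 15, 82147266 to 82205376), the gene of SREBP-2, had 15.0 and 21.3 against 28.5 and 27.3, or -0.61 ± 0.23 on the log2 scale (adjusted p = 0.792, limma). The 2 knockout libraries differed from each other more than the controls did, and the value was -0.85 or -0.37 when one or the other was left out. Srebf1, the gene of SREBP-1, had 14.4 and 12.8 against 19.7 and 15.0 (-0.32 ± 0.22, with -0.13 without wild type male replicate 1 and -0.50 without replicate 2). Scap had 10.1 and 10.7 against 12.4 and 11.0 (-0.16 ± 0.18, with -0.077 and -0.24 in the same fits). Both were clear of their controls by less than the distance between the control replicates. Insig2, the second INSIG gene, had 11.0 and 7.93 against 9.84 and 8.47 and overlapped. The regulators' median log2 fold change was -0.32, against 0.03 for all genes.

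Of the 18 cholesterol enzymes, 13 had a positive log2 fold change, against 53.9% of all genes. After median scaling 12 did, against 6438 of 13155 genes. The enzymes' median was 0.14 against 0.03 for all genes, and 0.095 against -0.0083 after median scaling. Msmo1 (chromosome 8, 64718139 to 64733792), the sterol C4-methyl oxidase, had 15.2 and 13.3 FPKM in the knockout and 5.82 and 7.79 in wild type males. That gap exceeded the spread within either group, with a log2 fold change of 0.98 ± 0.22 (unadjusted p = 0.00845, adjusted p = 0.624, limma). Hmgcs1 had 85.1 and 90.1 against 63.7 and 76.2, or 0.33 ± 0.20 (adjusted p = 0.792, limma), and 0.20 without wild type male replicate 1. Lss (chromosome 10, 76531588 to 76557138) had 2.82 and 3.03 against 1.86 and 1.77, or 0.48 ± 0.18 (adjusted p = 0.792, limma). Of the 18 enzymes, 3 (Msmo1, Hmgcs1 and Lss) were above the controls in both knockout libraries, where 22.5% of all genes were, and none passed. The other 15 enzymes overlapped, from -0.33 for Dhcr7 to 0.45 for Ebp. All 8 meningeal markers had positive fold changes in the same comparison and all 8 arcuate neuron markers negative ones, and their part in these differences was not tested.

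Fasn had 36.6 and 40.9 FPKM in the knockout and 55.6 and 46.3 in wild type males, a log2 fold change of -0.38 ± 0.20 (adjusted p = 0.792, limma), and -0.25 without wild type male replicate 1. The other 9 genes of fatty acid synthesis, desaturation and elongation lay between -0.32 for Fads1 and 0.28 for Elovl6. The 2 synthesis genes with a miR-17 and miR-20a seed match were thus at 0.48 for Lss and 0.28 for Elovl6. Of those with a miR-92a match, Insig1 was at -1.25, Nsdhl at 0.27 and Sc5d at 0.15. Of those with a miR-18a match, Mvk was at 0.12, Sc5d at 0.15, Srebf1 at -0.32, Scd2 at -0.20 and Elovl1 at 0.19. Of those with a miR-19 match, Sc5d was at 0.15, Srebf2 at -0.61, Scd1 at -0.0035 and Elovl5 at 0.068. Among 35 tested of 37 further genes of lipid synthesis and sterol handling, 0 were called, 15 were positive and 20 negative, and the median was -0.05. Mbtps2, the site-2 protease that releases SREBP, had 0.48 and 0.89 against 1.51 and 1.92 (-0.69 ± 0.22). Me1, a malic enzyme that supplies NADPH, had 13.1 and 10.2 against 17.0 and 15.2, and Cyp46a1, the neuronal cholesterol 24-hydroxylase, 11.2 and 11.1 against 20.4 and 13.1. These 3, picked for smallest p, were below the controls in both libraries, each with an adjusted p of 0.792 in limma. Of the 35, 10 were below and 2 above the controls in both libraries, where 16.0% and 22.5% of all genes were.

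**Figure D3:**
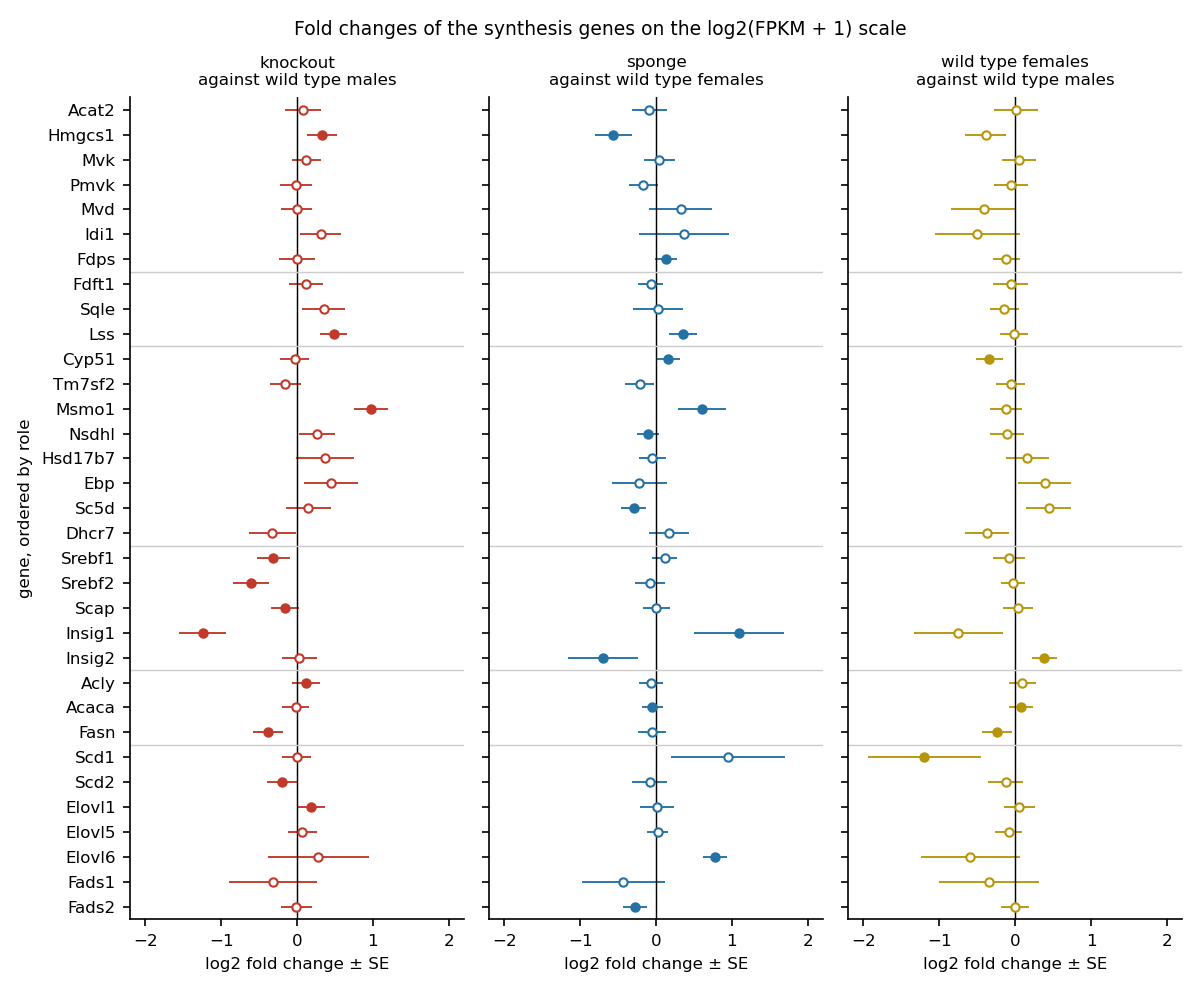
Log2 fold change with its standard error for each gene in the 3 comparisons, n = 2 libraries per group, on the log2(FPKM + 1) scale. Filled points mark genes whose groups did not overlap. Insig1 lies at -1.25 in the knockout and 1.1 in the sponge comparison.

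With the miR-7 sponge in females, no synthesis gene passed the test either. Of the 33, 0 were called, where 0.106% of 13157 genes (14) were, and 1 had an unadjusted p under 0.05, against 3.76% of all genes. Positive values numbered 16 of 33, against 44.0% of all genes, with a median of -0.05 against -0.03. Both sponge libraries were above both controls for Fdps, Lss, Cyp51, Msmo1, Insig1 and Elovl6, as for 12.1% of all genes. They were below for Hmgcs1, Nsdhl, Sc5d, Insig2, Acaca and Fads2, as for 18.8% of all genes.

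Elovl6 (chromosome 3, 129532355 to 129638495) had the smallest p, with 2.77 and 2.36 FPKM in the sponge and 1.16 and 0.99 in wild type females. The log2 fold change was 0.78 ± 0.16 (unadjusted p = 0.00846, adjusted p = 0.671, limma). The wild type male libraries, at 0.66 and 4.87, spanned all 4 of these values. Hmgcs1 had 34.6 and 36.2 in the sponge and 64.7 and 43.3 in wild type females, or -0.57 ± 0.24 (adjusted p = 1.0, limma). The sponge libraries were the lowest of the 8 for this gene, and the value was -0.28 without wild type female replicate 2 and -0.85 without replicate 4. Msmo1 had 7.30 and 13.2 against 6.63 and 5.66, or 0.61 ± 0.31 (adjusted p = 1.0, limma), with 0.22 without sponge replicate 2 and 1.00 without replicate 1. Lss had 2.76 and 2.39 against 2.06 and 1.54, and Sc5d 8.59 and 8.83 against 11.96 and 9.92. Of the 18 cholesterol enzymes 9 were positive and 9 negative.

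Among the regulators, Insig1 had 19.3 and 30.0 FPKM in the sponge and 5.89 and 18.9 in wild type females, a log2 fold change of 1.1 ± 0.59 (adjusted p = 1.0, limma). The nearest libraries of the groups, 19.3 and 18.9, almost touched, whereas the wild type replicates differed 3.21-fold. Leaving out wild type female replicate 2 took the value to 0.33, and leaving out replicate 4 to 1.86. Insig2 had 11.5 and 4.31 against 12.1 and 12.4 (-0.70 ± 0.46), with -0.081 without the low sponge replicate 2 and -1.32 without replicate 1. Srebf1 had 19.0 and 16.2 against 15.1 and 17.2, Srebf2 29.9 and 22.2 against 26.8 and 27.7, and Scap 12.4 and 11.6 against 10.7 and 13.5. These 3 overlapped.

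Of the 5 synthesis genes with a miR-7 seed match, Lss was above the controls in both sponge libraries, as were 12.1% of all genes. The other 4 overlapped. The log2 fold changes of the 5 were 0.36 for Lss, -0.05 for Hsd17b7, 0.11 for Srebf1, -0.09 for Scd2 and -0.43 for Fads1. Lss was at 0.22 without wild type female replicate 4, and Srebf1 ran from 0.0082 to 0.22 over the fits that left out 1 library. Oligodendrocytes make much lipid for myelin, and 10 of 12 of their markers had negative fold changes here, where 7364 of 13157 genes did. Their summed FPKM was 155 and 144 in the sponge against 206 and 202 in wild type females, with none at 0. Negative too were 8 of 8 astrocyte, 7 of 8 neuron, 5 of 6 endothelial, 6 of 6 choroid plexus and 4 of 6 microglia markers. By contrast, 8 of 8 meningeal, 6 of 6 ependymal and tanycyte, 7 of 8 arcuate neuron and 2 of 3 pituitary markers were positive. The part of any cell type in the values above was not tested. Among the 35 further genes tested, 11 were positive and 24 negative, the median was -0.09 and 0 were called. Of the 35, 11 were below and 3 above the controls in both sponge libraries, where 18.8% and 12.1% of all genes were. The 3 of smallest p are given next. Fads6, a fatty acid desaturase family member, had 0.89 and 1.52 against 2.71 and 4.84 (-1.09 ± 0.31). Npc1, which exports cholesterol from lysosomes, had 4.31 and 4.69 against 6.67 and 5.91, and Ggps1, which makes geranylgeranyl pyrophosphate, 3.71 and 3.36 against 1.92 and 2.63. Fads6 and Npc1 were below and Ggps1 above the controls in both libraries, each with an adjusted p of 1.0 in limma.

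**Figure D4:**
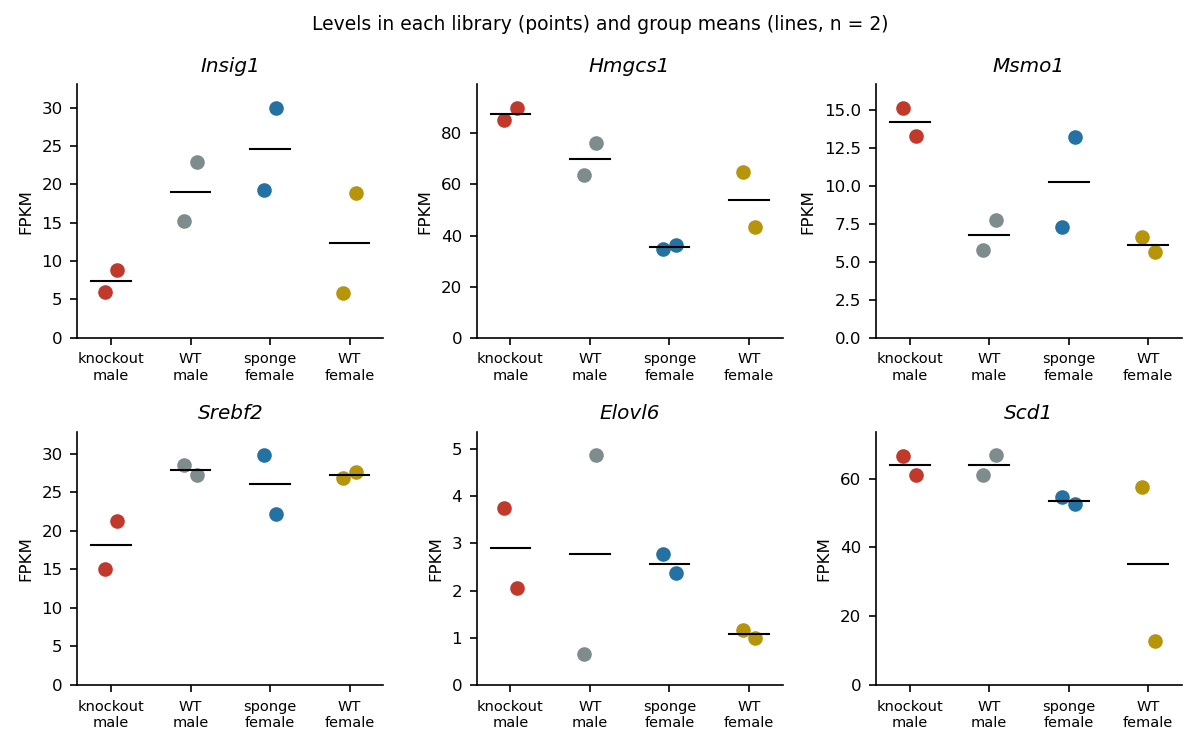
FPKM of 6 genes in each library (points) with group means (lines, n = 2). Insig1 is low in the knockout (5.95 and 8.89) and in wild type female replicate 2 (5.89), and Hmgcs1 is lowest in the sponge libraries, at 34.6 and 36.2.

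The knockout and sponge effects were set against each other in a fit over all 8 libraries, in which sex and manipulation cannot be told apart. Of the 33 genes, 0 were called and 2 had an unadjusted p under 0.05, against 0.0154% and 4.98% of 13025 genes. Insig1, lower in the knockout and higher in the sponge than its controls, differed by -2.34 ± 0.74 on the log2 scale (unadjusted p = 0.0181, adjusted p = 0.922, limma). Hmgcs1, with the opposite arrangement, differed by 0.89 ± 0.32 (unadjusted p = 0.029, adjusted p = 0.922, limma). Msmo1 and Lss had positive values in both comparisons.

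Between wild type females and males, 0 of the 33 genes were called, against 0.0686% of 13114 genes (9), and 0 had an unadjusted p under 0.05, against 4.61% of all genes. Positive values numbered 10 of 33, against 59.4% of all genes. After median scaling they numbered 6 of 33, against 6409 of 13114 genes. The median was -0.08 against 0.06 for all genes, and -0.15 against -0.01 after median scaling. Females were above males in all libraries for Insig2 and Acaca, as for 24.1% of all genes, and below for Cyp51, Fasn and Scd1, as for 10.9%. The females and males are controls of different manipulations, so sex cannot be told apart from line or litter here.

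Scd1 (chromosome 19, 44394451 to 44407709) had 57.6 and 12.7 FPKM in females and 61.1 and 66.9 in males. The log2 fold change of -1.20 ± 0.74 became -0.15 without wild type female replicate 4 and -2.25 without replicate 2. Insig2 had 12.1 and 12.4 against 9.84 and 8.47 (0.39 ± 0.17), and Cyp51, lanosterol demethylase, 11.1 and 10.5 against 15.4 and 12.7 (-0.34 ± 0.18, and -0.21 without wild type male replicate 1). Sc5d, Hmgcs1 and Insig1 overlapped between the sexes, with log2 fold changes of 0.44 ± 0.30, -0.39 ± 0.27 and -0.75 ± 0.58. Sc5d was at 0.091 without wild type male replicate 1 and 0.79 without replicate 2. Hmgcs1 was at -0.67 without wild type female replicate 2 and -0.11 without replicate 4, and Insig1 at 0.018 and -1.51. The adjusted p of all 6 was 0.92 in limma. Among the 35 further genes tested, 20 were positive and 15 negative, 17 and 18 after median scaling, and 0 were called. Ggps1 had 1.92 and 2.63 in females against 1.04 and 1.39 in males, and Lpin1, a phosphatidate phosphatase, 11.98 and 11.5 against 9.78 and 8.80.

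No transcript of a synthesis gene passed the test either. In the knockout comparison 0 of 60 tested were called, where 0.00904% of 22134 transcripts (2) were, and 5 had an unadjusted p under 0.05, against 5.83% of all. In the sponge comparison it was 0 of 63, where 0% of 22370 were called, and 4, against 4.52% of all. Acaca held the smallest p values of the knockout comparison. Acaca-001 had 17.6 and 19.6 FPKM in the knockout and 0.11 and 0.00 in wild type males, and Acaca-201 was listed at 0 and 0 against 19.9 and 21.8. The log2 fold changes were 4.21 ± 0.31 and -4.45 ± 0.30 (adjusted p = 0.165 for each, limma). The sum of both stayed between 17.6 and 21.8 in all 8 libraries. Among females the same exchange occurred within groups, with Acaca-001 at 0.05 and 18.8 in the sponge and 20.4 and 11.1 in wild type females.

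Dhcr7 held the smallest p values of the sponge comparison. Dhcr7-201 had 0.47 and 0.45 FPKM in the sponge and 5.32 and 6.16 in wild type females, and Dhcr7-009 had 7.59 and 3.62 against 0.00 and 0.03. The log2 fold changes were -2.2 ± 0.30 and 2.63 ± 0.43 (adjusted p = 0.548 and 0.713, limma), while the gene's own values, 4.49 and 2.67 against 2.67 and 3.35, were close. Among males the same transcripts differed between replicates, with Dhcr7-201 at 1.42 and 7.42 in the knockout and 10.0 and 1.30 in wild type males. Msmo1-001 had 42.9 and 35.1 in the knockout against 15.3 and 20.5 in wild type males, as the gene did, with a log2 fold change of 1.09 ± 0.26 (adjusted p = 0.698, limma). Insig1-001 had 6.46 and 9.40 against 17.2 and 25.9, or -1.33 ± 0.33 (adjusted p = 0.709, limma).

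**Figure D5:**
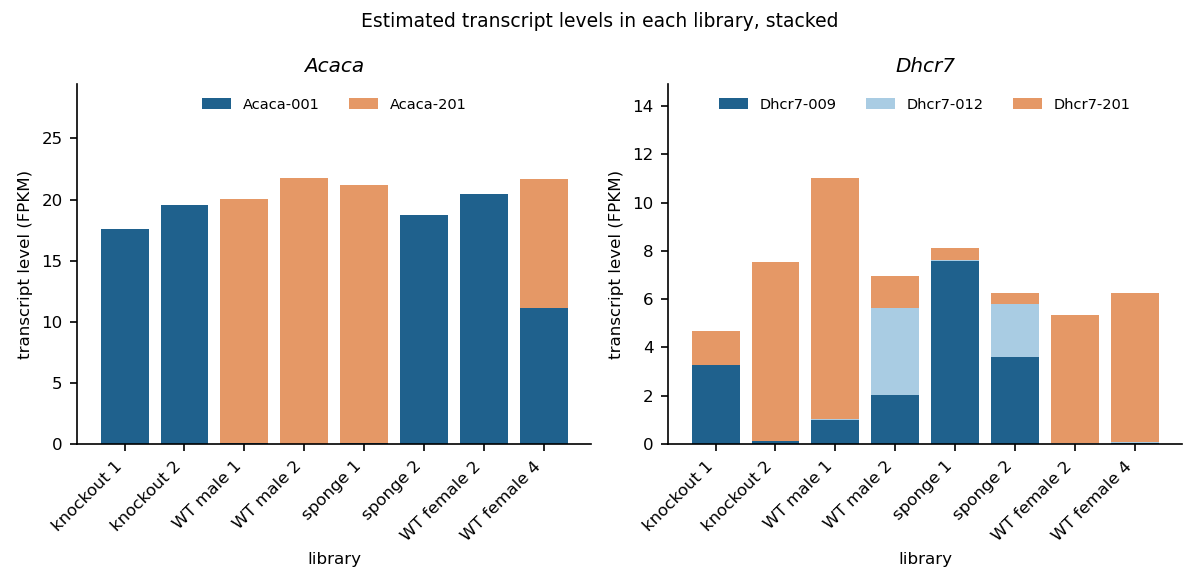
Estimated FPKM of 2 Acaca and 3 Dhcr7 transcripts, stacked for each library. The Acaca sum is nearly even (17.6 to 21.8 FPKM), while one or the other transcript holds nearly all of it in every library but wild type female replicate 4.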

How the data were processed

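The authors deposited FPKM per gene and per transcript, made per the submitters' processing notes with FastQC, cutadapt, HISAT2 2.0.4 and StringTie 1.2.3 on mm10 (GRCm38); the series design text names Ballgown. The strand setting is not given in the sources used here. Per the labels, the second raw read file of sponge replicate 2 is missing, and how its FPKM were then made is not stated. Read totals were not analysed here, so depth is unknown and counting error could not be estimated. From the deposited FPKM, limma 3.58.1 (R 4.3.3) was fitted to log2(FPKM + 1), with a trend of variance on level, to the 4 libraries of a comparison, over genes with a mean FPKM of at least 0.5 in them. Two-sided p-values were adjusted over all these genes by Benjamini-Hochberg and called at 0.05; the pseudocount understates changes of low genes. All 33 genes passed the filter in all 3 comparisons. Values after ± are standard errors, with n = 2 libraries per group. The labels do not say that the pools came from separate litters, so a p-value reflects only the scatter among these libraries, which may be technical. The fit was tested on simulated data. The genes, lists and tests were chosen with earlier results of these data known. The rule for full values took the regulators, the 4 highest and 2 lowest genes, the 6 genes of smallest p per comparison and the 3 further genes of smallest p, of which 1 is not reported here; other genes are given by range or were named after their values were seen. Seed matches used GENCODE M21 3' UTRs on GRCm38, whose ends can differ from the authors' annotation. Alternatives were a pseudocount of 0.1, no filter, no trend of variance, median scaling, a fit over 8 libraries, a replicate block and leaving out each library.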

Additional observations from a re-analysis of the deposited data

Results flagged for a closer look

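Insig1 and Hmgcs1 had effects of opposite direction in the knockout and the sponge, and in each comparison both manipulated libraries lay on one side of both controls. They were picked for this arrangement, so the sign of the difference was set in advance, also with 1 library left out. Over all genes, 22.5% were higher and 16.0% lower in both knockout libraries, and 12.1% and 18.8% in both sponge libraries. How many of all genes had opposite arrangements was not counted. The knockout effect minus the sponge effect was -2.34 on the log2(FPKM + 1) scale for Insig1 and 0.89 for Hmgcs1. Their unadjusted p-values were 0.0181 and 0.029, and neither passed over all genes (adjusted p = 0.922 for each, limma). Over the 8 fits that left out 1 library each, the difference ran from -3.11 to -1.58 for Insig1 and from 0.61 to 1.18 for Hmgcs1, with the smallest size in both when wild type female replicate 2 was left out.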

How the results depend on the processing

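No synthesis gene and no transcript of one was called under any alternative run. Of 312 values of single genes and transcripts under the alternatives, 299 kept their direction and 13 reversed. That count is partly fixed in advance and does not measure robustness. Many of these genes and transcripts were picked for small p in these data, and groups that do not overlap cannot reverse when 1 library is left out. The filter, the trend of variance, the replicate block and the fit over all 8 libraries do not alter a log2 fold change. Of the counts and medians under the alternatives, 107 stayed close and 31 moved. Genes called over all genes in the knockout comparison numbered 2 with a pseudocount of 0.1, 0 after median scaling and 0 with a replicate block, against 8; in the sponge comparison they numbered 2 in the fit over all 8 libraries, against 14. After median scaling the synthesis genes' median between the sexes was -0.15, Insig2 was at -0.012 in the knockout and Scap at -0.035 between the sexes. Leaving out 1 library, genes called numbered 0 to 0 in all 3 comparisons. Synthesis genes at an unadjusted p under 0.05 then numbered 1 to 3 in the knockout, 1 to 4 in the sponge and 1 to 2 between the sexes, and their medians ran from -0.040 to 0.13, from -0.057 to 0.027 and from -0.14 to -0.038. Directions that turned were those of Insig2 in the knockout (-0.18 to 0.24), of Srebf2 (-0.28 to 0.13) and Scap (-0.15 to 0.16) in the sponge, and, between the sexes, of Insig1 (-1.51 to 0.018), Srebf1 (-0.27 to 0.10), Srebf2 (-0.061 to 0.00064) and Scap (-0.12 to 0.19). Leaving out a library leaves 1 in its group, which is then assumed to vary like the other group; beyond that the cause was not tested. Knockout and wild type male libraries of the same replicate number showed no shared shift, since their deviations correlated at -0.00058 over 13130 genes. Whether these pools were paired by litter or handling cannot be told from that value. Beyond the knockout comparison, the sponge and wild type females, and the wild type females and males, share fewer than 2 replicate numbers, so no replicate block was fitted there.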
